A study of Mus musculus with 51 samples.

Results

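The genes described here are 42 members of the Wnt pathway: 9 Wnt ligands, 2 proteins needed for ligand secretion, 10 receptors and co-receptors, 4 R-spondins and R-spondin-controlled ubiquitin ligases, 8 secreted antagonists, 4 intracellular inhibitors and 5 transcriptional effectors. They are given by gene symbol, and each symbol was matched to 1 of the 53801 Ensembl genes of the count table. Total RNA was sequenced from 51 cultures of the mouse line C3H/10T1/2-SAM, whose mesenchymal cells can turn into fat cells. All cells carry the transcriptional activators dCas9-VP64 and MS2-P65-HSF1, which raise a gene when a guide RNA directs them to its promoter. Cultures were transfected with 250 ng of plasmid holding guides for Pparg and Ybx1 (PY), a guide for Pparg alone (P) or the empty vector (EV). All of them, EV included, received 5 µM of the PPARG agonist rosiglitazone on day 0, which was 48 hours after transfection. RNA was taken on days 0, 2 and 4, which gave PY groups of 6, 5 and 6 libraries, P groups of 5, 6 and 6 libraries and EV groups of 5, 6 and 6 libraries from 6 labelled experiments. Whether the day 0 RNA was taken before or after the drug was added is not given in the sources used here. Because every culture received the drug, a difference between days holds rosiglitazone, time in culture and time after transfection together, and these cannot be told apart.

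Wnt ligands are lipid-modified secreted proteins that bind Frizzled receptors. With the co-receptors LRP5 and LRP6 they stop the Axin complex from destroying beta-catenin, which then enters the nucleus and acts with TCF and LEF factors. Wnt signalling through beta-catenin is known to hold back the formation of fat cells, and PPARG, the master regulator of fat cells, is known to oppose it. Other branches run through receptors such as ROR2 without beta-catenin.

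Total counts per library ran from 3381870 to 114566739, with a median of 22366559. The guided genes were high where the labels place a guide. Pparg was 5.08-fold, 5.28-fold and 4.64-fold higher in PY than in EV on days 0, 2 and 4, and 4.69-fold, 5.30-fold and 4.18-fold higher in P than in EV. Ybx1 was 3.11-fold, 3.07-fold and 3.24-fold higher in PY than in EV, and its log2 fold change of P over EV was 0.03, 0.06 and 0.002. All 7 mesenchymal markers averaged over 1 CPM (counts relative to library size, scaled between libraries by the TMM method), and their summed level lay between 6441 and 18770 CPM in all libraries. The summed level of 6 fat cell markers was 1223 to 10280 CPM in PY day 4 libraries, 2373 to 8699 CPM in P day 4 libraries and 38.3 to 295 CPM in EV day 4 libraries. It lay between 11.6 and 22.97 CPM in EV day 0 libraries. In bulk RNA, fewer cells of a type and less RNA per cell cannot be told apart, and the part of fat cell content in the differences below was not tested. The library PY day 4 replicate 4 (from experiment 4) stood apart: its first principal component score was -29.7, against 67.9 to 102 in the other PY day 4 libraries and -28.1 to 57.6 in EV day 4 libraries. Its level of Adipoq, a fat cell hormone, was 78.3 CPM, the lowest of the PY day 4 libraries, whose median was 981 CPM. Calls of members that use it are given with and without it, and the calls made only with the experiment as a block are summed up without it.

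Of the 42 genes, 35 passed the filter on low counts and were tested among 17015 genes, and 7 did not pass. A gene is named as called where the quasi-likelihood test of edgeR gave a p under 0.05 after Benjamini-Hochberg adjustment across all genes tested. Levels of single libraries are listed in the order of their experiments for groups of 5, and as lowest, highest and median for groups of 6. Each library of a group comes from another experiment.

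Levels per exonic length (FPKM, computed from CPM and the length of all exons in GENCODE) showed which members dominated each role. Rspo2, a secreted R-spondin that keeps Frizzled receptors on the cell surface, had the highest mean over all libraries, at 156 FPKM. Its level was 167 ± 53.7 FPKM in PY day 4 libraries, 186 ± 35.4 FPKM in P day 4 libraries and 234 ± 51.6 FPKM in EV day 4 libraries (SD, n = 6 each). Ctnnb1, which encodes beta-catenin, followed at 104 ± 16.5 FPKM in EV day 4 libraries, then Sfrp2, a secreted Frizzled-related Wnt-binding protein, at 79.6 ± 49.7 FPKM, and Fzd1, a Frizzled receptor, at 70.2 ± 16.4 FPKM.

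Ligands were low next to receptors. In EV day 4 libraries the 10 receptors summed to 209 ± 36.3 FPKM and the 9 ligands to 7.51 ± 2.23 FPKM (SD, n = 6). Wnt5b and Wnt5a, which are known for signalling without beta-catenin in many cells, made up 48.5% and 35.97% of the summed ligand level there. In EV day 0 libraries Wnt5b made up 21.99%, Wnt5a 44.98% and Wnt9a 21.2% of the 4.62 ± 2.28 FPKM (SD, n = 5). Among secreted antagonists, Sfrp2 and Sfrp1 held 66.8% and 28.6% of the summed level in EV day 4 libraries. Among intracellular inhibitors, Axin1, the scaffold of the beta-catenin destruction complex, held 95.3% in EV day 0 libraries. In EV day 4 libraries it held 74.0%, and Nkd1, a Dishevelled-binding inhibitor, held 23.1%.

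**Figure D1:**
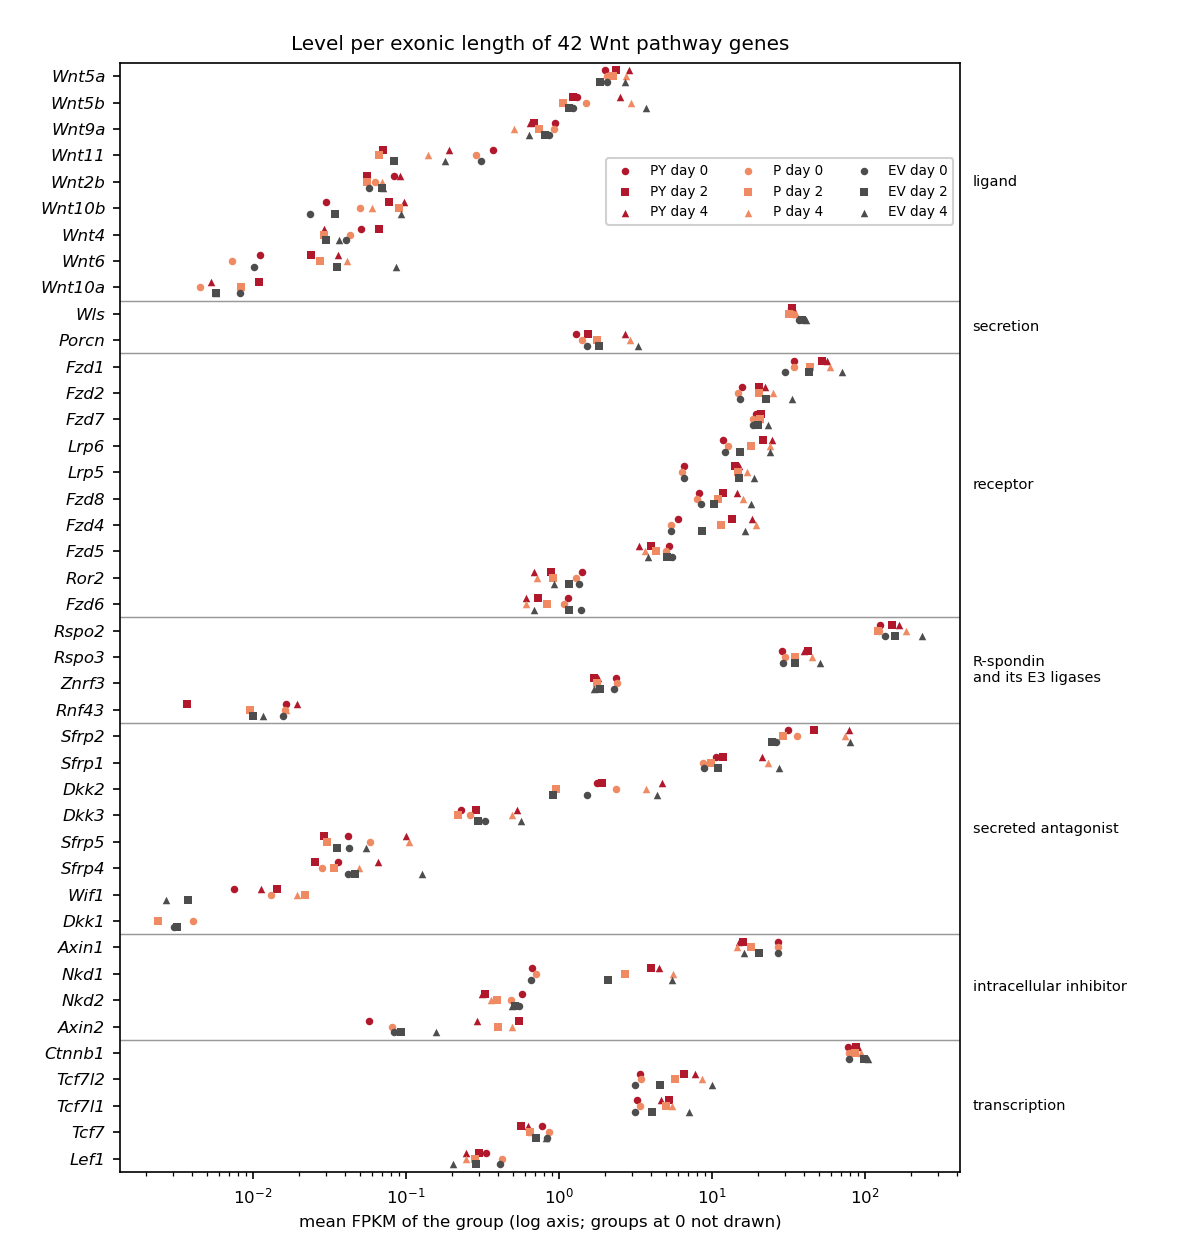
Mean FPKM of each of the 42 genes (rows, grouped by role) on a log axis, with 1 point for each of the 9 groups, coloured by transfection (PY, P, EV) and shaped by day. Rspo2 has the highest mean over all libraries at 156 FPKM, and Dkk1 has the lowest, with 7 counts in all.

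The 7 members that failed the filter were Wnt4, Wnt6, Wnt10a, Sfrp5, Dkk1, Wif1 and Rnf43. Dkk1, a secreted blocker of LRP5 and LRP6, had 7 counts in all 51 libraries together and 0 counts in 46 of them. Wnt10a, a ligand, had 19 counts in all and Wif1, a secreted Wnt-binding inhibitor, had 31. Wnt6 had 91 counts, Sfrp5, a Wnt-binding antagonist, 134, Rnf43, a ubiquitin ligase that removes Frizzled receptors from the surface, 134, and Wnt4 205, with at most 19 counts in 1 library. No comparison was made for these 7 genes. Each library holds between 0 and 19 counts of any of them.

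The Pparg guide was accompanied by a difference in 1 member. Axin2, a scaffold of the destruction complex that is itself a classic target gene of beta-catenin, was higher in P than in EV on days 2 and 4 and higher in PY than in EV on day 2. No other member was called between transfections on any day. PY against EV called 1 of 35 members on day 2, or 2.86%, beside 4.74% of all genes tested. P against EV called 1 of 35 on day 2, beside 2.83% of all genes, and 1 on day 4, beside 5.37%. These shares are near or below those of all genes. In PY against EV on day 4, edgeR called 0 members, beside 7.83% of all genes, with 3 at an unadjusted p under 0.05 and 0 with DESeq2. On day 0, PY against EV called 0 members in edgeR (background 0.0470%, 0 at an unadjusted p under 0.05, 0 with DESeq2). P against EV on day 0 also called 0 in edgeR (background 0.00588%, 1 at an unadjusted p under 0.05, 0 with DESeq2).

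Axin2 lies on mouse chromosome 11 on the plus strand (GRCm38). The RefSeq promoter window of Axin2, 250 bases before to 50 bases after the start at chr11:108920099-108920398, is shown because Axin2 carries the difference between transfections.
Axin2: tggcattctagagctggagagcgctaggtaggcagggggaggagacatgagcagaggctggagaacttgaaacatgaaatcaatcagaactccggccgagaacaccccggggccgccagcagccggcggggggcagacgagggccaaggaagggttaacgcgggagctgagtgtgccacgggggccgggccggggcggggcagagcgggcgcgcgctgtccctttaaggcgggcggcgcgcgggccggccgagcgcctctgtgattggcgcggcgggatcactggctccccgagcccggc
Neither of the motifs searched on both strands, the TCF/LEF core CTTTGA and the nuclear receptor motif AGGTCA, occurs in this window. The core occurs in 16% and the receptor motif in 16.3% of the 32851 promoter windows of the table.

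On day 0, Axin2 was low in all groups. It lay at 0 to 0.514 CPM (median 0.347) in PY libraries, at 0.666, 0.859, 0.374, 0.0843 and 0.251 CPM in P libraries and at 0.4705, 0.218, 1.16, 0.297 and 0.153 CPM in EV libraries. The ranges of these groups overlapped, and neither guide group was called against EV (adjusted p = 1 for both). Axin2 had 1575 counts over all libraries and between 0 and 139 counts in a library, so single low values rest on few reads or fragments.

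On day 2, Axin2 lay at 0.431, 1.397, 4.38, 4.93 and 3.87 CPM in PY libraries, at 0.703 to 5.08 CPM (median 1.65) in P libraries and at 0.232 to 0.974 CPM (median 0.469) in EV libraries. Of these, 3 of the 5 PY libraries and 2 of the 6 P libraries exceeded 3 CPM, while EV stayed under 1 CPM, and the ranges overlapped at the low end. Axin2 was 5.82-fold higher (log2 fold change 2.54, SE 0.58, 95% interval of the fold 2.603 to 13.02, adjusted p = 0.00307) in PY than in EV and higher in 5 of 5 experiments, though in experiment 1 the values were nearly equal at 0.431 CPM in PY and 0.429 CPM in EV. In P it was 4.496-fold higher (log2 fold change 2.17, SE 0.55, 95% interval of the fold 2.09 to 9.67, adjusted p = 0.0141) than in EV and higher in 5 of 6 experiments, with experiment 3 as the exception. The P call was lost without P day 2 replicate 5 (adjusted p = 0.125), and without any 1 of experiments 5 and 6 (adjusted p 0.142 to 0.197). The PY call held without each library in turn (highest adjusted p = 0.038) and was lost without experiment 6 (adjusted p = 0.0585). Experiment 4, the lowest for Axin2 in 5 of 8 groups, has no PY day 2 library but has one in P and EV.

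On day 4, Axin2 lay at 0.333 to 2.34 CPM (median 1.75) in PY libraries, at 1.17 to 4.42 CPM (median 2.96) in P libraries and at 0.313 to 1.83 CPM (median 0.698) in EV libraries. The lowest PY value belonged to PY day 4 replicate 4, and the P and EV ranges overlapped between 1.17 and 1.83 CPM. Axin2 was 3.25-fold higher (log2 fold change 1.70, SE 0.53, 95% interval of the fold 1.55 to 6.82, adjusted p = 0.0475) in P than in EV, in 6 of 6 experiments. This call was close to the threshold and was lost without any 1 of P day 4 replicates 1, 2, 3 and 5, or of EV day 4 replicates 1, 4, 5 and 6 (adjusted p 0.0723 to 0.122) and without the low count filter (adjusted p = 0.0695). It was also lost without any 1 of experiments 1, 2, 5 and 6 (adjusted p 0.118 to 0.208). In PY the difference from EV did not pass, at a log2 fold change of 0.92 (SE 0.54, 95% interval of the fold 0.90 to 4.00, adjusted p = 0.407), and at 1.15 with an adjusted p of 0.203 without PY day 4 replicate 4.

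PY and P share the EV libraries as their control, so their differences from EV are not independent. Set against each other directly, Axin2 did not pass on any day: the fold of PY over P was 1.30 on day 2 (95% interval 0.615 to 2.73) and 0.584 on day 4 (95% interval 0.287 to 1.19), both with an adjusted p of 1. The tests of whether the P difference from EV itself changed since day 0 also did not pass for Axin2, at a log2 change of 1.90 by day 2 (SE 0.85, adjusted p = 1) and 1.43 by day 4 (SE 0.84, adjusted p = 0.999). Fat cell marker sums moved with the transfection on day 2, at 1423 to 8751 CPM in PY, 1629 to 7913 CPM in P and 59.1 to 206 CPM in EV, and their part in the Axin2 difference was not tested.

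**Figure D2:**
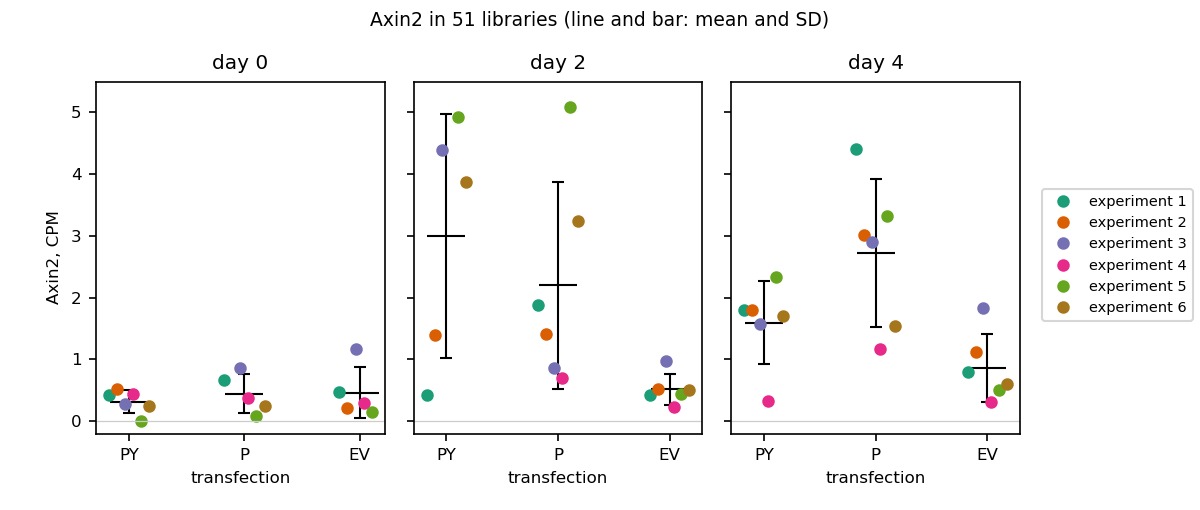
Axin2 level in CPM (linear axis) in all 51 libraries by day (panels) and transfection (PY, P, EV), coloured by experiment, with the mean and SD of each group. On day 2 the PY and P libraries spread from 0.431 to 4.93 CPM and from 0.703 to 5.08 CPM, while the EV libraries lie between 0.232 and 0.974 CPM.

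Adding the Ybx1 guide to the Pparg guide gave no call among the members. In PY against P, edgeR called 0 of 35 on day 0 (background 0.0294%), day 2 (background 0.0118%) and day 4 (background 0.0176%), with 0 members at an unadjusted p under 0.05 on each day and 0 with DESeq2. The largest log2 difference of a member between PY and P was 0.46 on day 0 (Wnt10b, lower), 1.012 on day 2 (Dkk2, higher) and 0.78 on day 4 (Axin2, lower), and none of these passed. In the tests of a changed P difference since day 0, edgeR called 0 members by day 2 (background 0.0588%) and 0 by day 4 (background 0.306%), with 1 at an unadjusted p under 0.05 and 0 with DESeq2 each.

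With the experiment as a block in the model, 2 further members passed between transfections. Axin1 was lower in PY than in EV on day 2 (log2 fold change -0.27, adjusted p = 0.0491 with the experiment as a block, against -0.34 and 0.16 without). It lay at 67.1, 54.02, 69.7, 51.2 and 62.5 CPM in PY libraries and at 64.7 to 94.5 CPM (median 74.8) in EV libraries, lower in 5 of 5 experiments with overlapping ranges. Fzd2, a Frizzled receptor, was lower in PY than in EV on day 4 (log2 fold change -0.58, adjusted p = 0.0201 with the experiment as a block, against -0.58 and 0.175 without). It lay at 63.2 to 105 CPM (median 80.5) in PY libraries and at 94.5 to 157 CPM (median 118) in EV libraries, lower in 6 of 6 experiments. With the block, PY against EV called 2 members on day 2 (background 10.2%) and 1 on day 4 (background 15.7%), and P against EV called 1 on day 2 (background 5.53%) and 1 on day 4 (background 10.1%). With the block and without PY day 4 replicate 4, a setting chosen after seeing the data, PY against EV on day 4 called 4 members (background 17.9%). Lower in PY there were Fzd2 (log2 fold change -0.62, adjusted p = 0.0155), Fzd7 (-0.30, adjusted p = 0.0179), Wls (-0.38, adjusted p = 0.0384) and Ctnnb1 (-0.24, adjusted p = 0.0426).

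More members were called between days than between transfections. Day 4 against day 0 called 11 of 35 members in PY (background 37.5%), 13 in P (background 37.2%) and 18 in EV (background 30.0%). In PY, 7 were higher (background 19.7%) and 4 lower (background 17.8%). In P, 8 were higher (background 18.7%) and 5 lower (background 18.5%). In EV, 14 were higher (background 15.1%) and 4 lower (background 14.9%). Without the block, the EV share, 51.4%, lay above its background, the P share of 37.1% was near it, and the PY share of 31.4% lay below it. The 14 members called higher in EV were 40% of the 35. The median log2 difference of the 35 members was 0.55 in PY, 0.57 in P and 0.97 in EV, while that of all genes tested lay between -0.01 and 0.03. With the experiment as a block, 27 of 35 members were called in PY (background 52.1%), 25 in P (background 51.3%) and 27 in EV (background 44.6%). With the block the member share thus lay above its background in each transfection, and the order seen without it was not kept. Without PY day 4 replicate 4, PY called 12 without the block (background 42.6%) and 23 with it (background 52.4%). Of the 16 members called in PY by day 4 only with the block, 12 were still called with the block and without that library. The other 4 were Wnt9a (adjusted p = 0.0601), Wnt10b (0.136), Ctnnb1 (0.064) and Rspo2 (0.0762).

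Day 2 against day 0 called 8 members in PY (background 22.7%), 4 in P (background 14.0%) and 3 in EV (background 7.31%). In PY, 5 were higher (background 11.4%) and 3 lower (background 11.3%). In EV, 1 was higher (background 2.89%) and 2 lower (background 4.43%). With the block, day 2 called 11 members in PY (background 35.4%), 8 in P (background 28.5%) and 8 in EV (background 21.8%). The same day 0 libraries serve both days, so the day 2 and day 4 differences of a transfection are not independent. Lrp5 was higher and Wnt11 and Axin1 were lower on day 2 in each of the 3 transfections. By day 4, Fzd4, Fzd8, Lrp5, Lrp6, Porcn and Nkd1 were called higher, and Fzd5, Axin1 and Znrf3 lower, in each of the 3. The share of all genes called in all 3 transfections was not computed, so neither list has a background beside it.

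**Figure D3:**
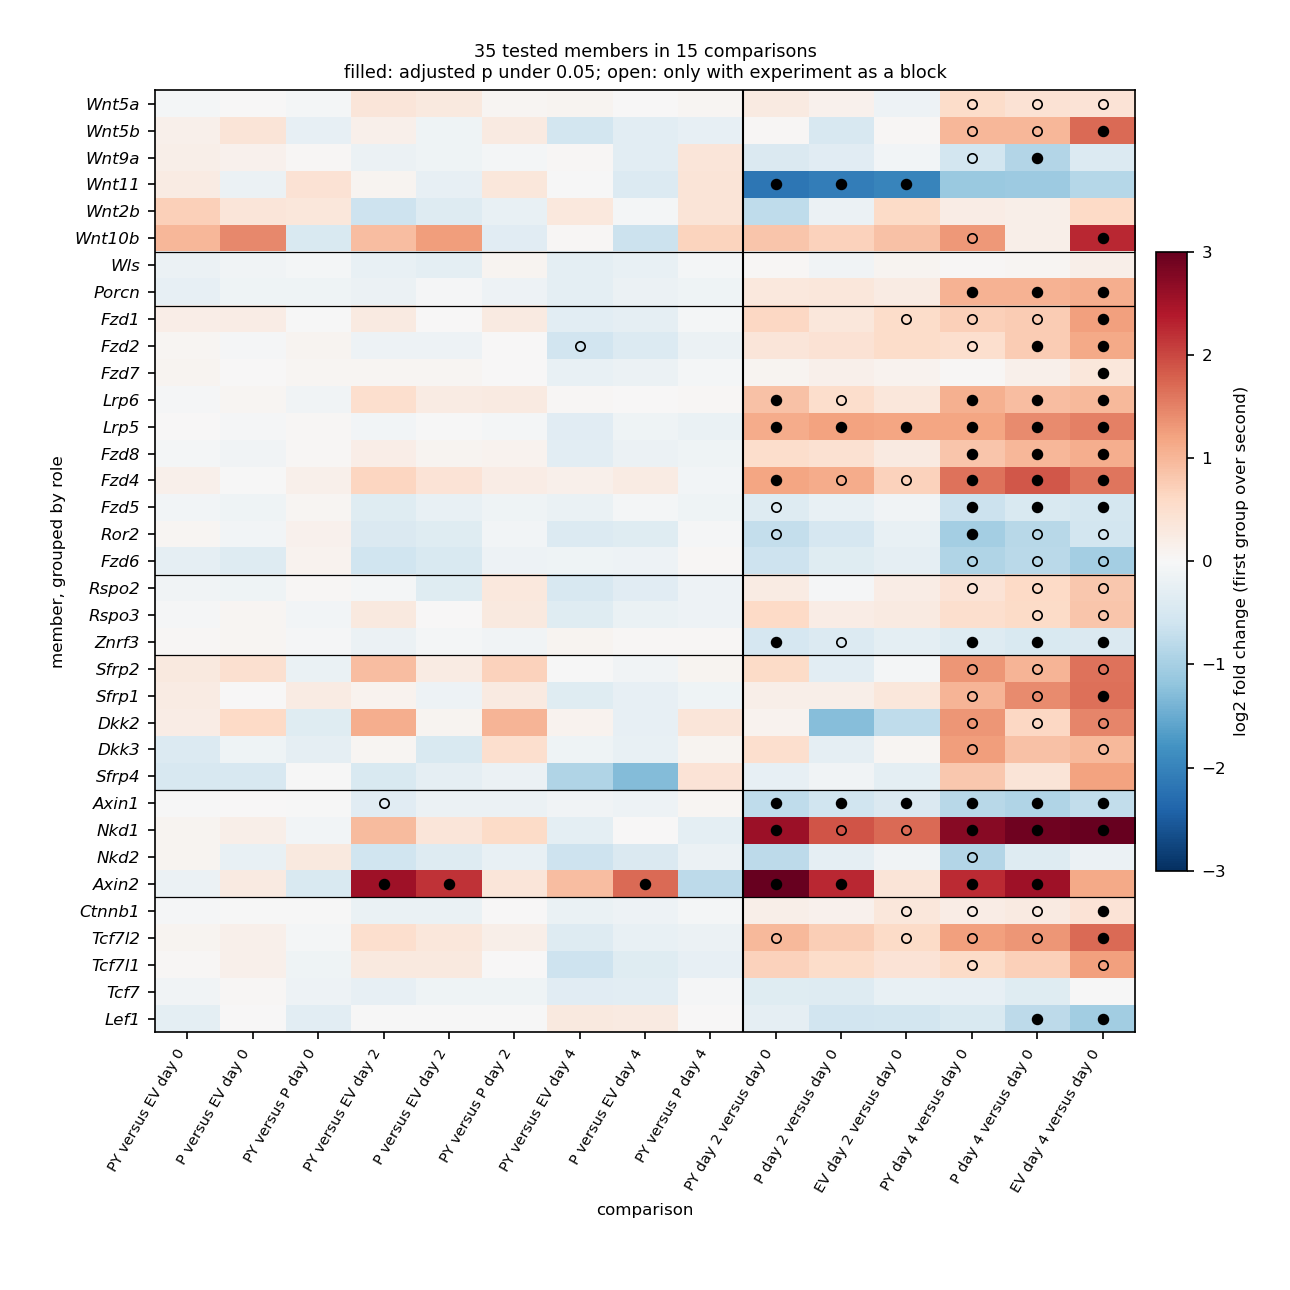
Log2 fold change (colour, first group over second) of the 35 tested members, rows grouped by role, in 9 comparisons of transfections and 6 of days, with filled circles for calls and open circles for calls made only with the experiment as a block. Axin2 carries the 3 filled circles left of the line, and Lrp5 and Axin1 are filled in all 6 columns right of it.

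The ligands were called in both directions. Of the 6 tested, 2 were called higher by day 4 in EV (33.3%, background 15.1%) and 1 was called lower in P (16.7%, background 18.5%). By day 2, 1 was called lower in all transfections (16.7%, background 11.3% in PY and 4.43% in EV). In P on day 2 the background in either direction was 14.0%. Wnt5b lay at 5.89 to 15.7 CPM (median 9.37) in EV day 4 libraries and at 4.38, 1.704, 8.903, 0.668 and 0.717 CPM in EV day 0 libraries, higher in 4 of 5 experiments with experiment 3 as the exception. It was 3.24-fold higher (log2 fold change 1.70, SE 0.61, adjusted p = 0.0309). The call was lost without any 1 of EV day 4 replicates 1 and 5, or of EV day 0 replicates 2, 4 and 5 (adjusted p 0.0508 to 0.106). Without EV day 0 replicate 3, the highest day 0 library, the log2 fold change was 2.35 (adjusted p = 0.00423). In PY and P, Wnt5b passed only with the block (log2 fold change 1.11, adjusted p = 0.0238 with the experiment as a block, against 0.998 and 0.164 without in PY, and log2 fold change 1.38, adjusted p = 0.00658 with the experiment as a block, against 0.99 and 0.179 without in P).

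Wnt10b, a ligand known in mouse preadipocytes to hold back fat cell formation, was scarce, with at most 35 counts in a library. It lay at 0.119 to 0.505 CPM (median 0.296) in EV day 4 libraries and at 0.0818, 0, 0.194, 0.0742 and 0.0512 CPM in EV day 0 libraries, higher in 5 of 5 experiments with overlapping ranges. It was 4.76-fold higher (log2 fold change 2.25, SE 0.65, adjusted p = 0.00738), and the call held without each library in turn but was lost without experiment 2 (adjusted p = 0.0773). In PY it passed only with the block (log2 fold change 1.33, adjusted p = 0.0366 with the experiment as a block, against 1.29 and 0.0561 without), and in P its day 4 range was 0 to 0.566 CPM (median 0.106). Wnt10b was also the 1 of 35 tested members whose P and EV libraries did not overlap on day 2, a share near the 2.40% of all genes tested. It lay at 0.203 to 0.497 CPM (median 0.304) in P and 0.0845 to 0.156 CPM (median 0.111) in EV, and that difference did not pass (log2 fold change 1.25, SE 0.54, adjusted p = 0.353).

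Wnt5a, the ligand with the highest mean FPKM over all 51 libraries, passed only with the block. It lay at 17.0 to 32.1 CPM (median 21.6) in PY day 4 libraries and at 7.296 to 30.3 CPM (median 13.2) in PY day 0 libraries (log2 fold change 0.69, adjusted p = 0.00121 with the experiment as a block, against 0.55 and 0.152 without). In P the values were 13.4 to 32.1 CPM (median 20.96) on day 4 and 25.2, 24.9, 9.37, 9.77 and 11.1 CPM on day 0 (adjusted p = 0.0233 with the block and 0.301 without). In EV they were 10.8 to 32.2 CPM (median 22.02) on day 4 and 19.4, 10.8, 29.2, 10.3 and 11.2 CPM on day 0 (adjusted p = 0.0203 with the block and 0.342 without). Experiments 1 and 3 were high on day 0 in each transfection, and the ranges of the days overlapped in all 3.

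Wnt9a, a ligand with known roles in joints, was lower by day 4 in P. It lay at 1.27 to 2.24 CPM (median 1.65) in P day 4 libraries and at 3.39, 2.24, 4.51, 2.95 and 2.46 CPM in P day 0 libraries, so that the highest day 4 value stood just below the lowest day 0 value and the days did not overlap. It was 1.84-fold lower (log2 fold change -0.88, SE 0.24, adjusted p = 0.00366), lower in 5 of 5 experiments, and this call held without each library in turn. In PY it passed only with the block (log2 fold change -0.56, adjusted p = 0.034 with the experiment as a block, against -0.55 and 0.0565 without).

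Wnt11, a ligand known mainly for signalling without beta-catenin, was lower on day 2 in each transfection. Its RefSeq promoter window at chr7:98834862-98835161 (GRCm38.p6, plus strand) is the first of 2 in the table and is shown because Wnt11 was called in all 3 day 2 comparisons and this window holds the TCF/LEF core on the minus strand, in capitals, 50 bases before the start.
Wnt11: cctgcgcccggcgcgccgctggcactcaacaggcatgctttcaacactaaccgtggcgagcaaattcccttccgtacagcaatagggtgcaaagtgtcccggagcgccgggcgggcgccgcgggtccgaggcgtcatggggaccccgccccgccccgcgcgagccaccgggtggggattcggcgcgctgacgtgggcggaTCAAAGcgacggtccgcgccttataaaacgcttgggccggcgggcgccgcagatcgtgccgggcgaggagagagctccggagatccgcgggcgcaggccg
The core was found in 5 of 37 promoter windows of members, or 13.5%, which come from 27 members, beside 16% of all windows. The second Wnt11 window, at chr7:98838595-98838894, holds neither of the motifs searched. A match is a run of letters and was not tested for binding.

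In PY, Wnt11 lay at 0.729, 0.1904, 0, 0.284 and 0.258 CPM on day 2 and at 0.278 to 3.51 CPM (median 1.397) on day 0, lower in 5 of 5 experiments, 4.47-fold lower (adjusted p = 0.015). P libraries lay at 0.0712 to 0.457 CPM (median 0.269) on day 2 and at 1.101, 0.382, 2.29, 0.927 and 1.26 CPM on day 0, 4.198-fold lower (adjusted p = 0.0199). EV libraries lay at 0.169 to 0.741 CPM (median 0.272) on day 2 and at 0.593, 0.8299, 0.194, 3.75 and 1.07 CPM on day 0, 3.97-fold lower (adjusted p = 0.0406). Experiment 4 held the highest day 0 value in all 3 transfections. The calls were sensitive to single libraries: the PY call was lost without PY day 0 replicate 4 (adjusted p = 0.0584), the P call without any 1 of P day 2 replicates 5 and 6, or of P day 0 replicate 3 (adjusted p 0.054 to 0.0927), and the EV call without any 1 of EV day 2 replicates 1, 2, 5 and 6, or of EV day 0 replicates 4 and 5 (adjusted p 0.0603 to 0.386). Without EV day 0 replicate 4 the EV log2 fold change was -1.08, and without PY day 2 replicate 1 that of PY was -2.76 (adjusted p = 0.00923). By day 4, Wnt11 was not called in any transfection.

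Of the 2 secretion genes, Porcn was called and Wls was not. Porcn encodes the enzyme that attaches the lipid that Wnt ligands need for release. It lay at 5.06 to 10.9 CPM (median 8.29) in PY day 4 libraries and at 2.55 to 5.099 CPM (median 3.89) in PY day 0 libraries. The P values were 5.26 to 11.6 CPM (median 8.79) on day 4 and 4.41, 4.01, 3.71, 3.83 and 5.23 CPM on day 0. The EV values were 6.72 to 14.1 CPM (median 8.74) on day 4 and 4.77, 5.02, 4.84, 4.305 and 4.09 CPM on day 0. The days did not overlap in P or EV, and in PY the lowest day 4 value, from PY day 4 replicate 4, fell just below the highest day 0 value. Porcn was 2.06-fold higher (log2 fold change 1.04, SE 0.23, adjusted p = 0.000273) on day 4 than on day 0 in PY, 2.07-fold higher (adjusted p = 0.000451) in P and 2.14-fold higher (adjusted p = 0.0005) in EV, in every experiment that had both days. The PY log2 fold change of Porcn was 1.14 (adjusted p = 9.08e-05) without PY day 4 replicate 4.

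Wls, the carrier that takes Wnt ligands to the surface, was called in no comparison that used all libraries, and its levels ran from 189 to 468 CPM. Its largest log2 difference was -0.29 between P and EV on day 2 (SE 0.14, adjusted p = 0.481). Wls was lower in P than in EV in 6 of 6 experiments on day 2 and on day 4, and lower in PY than in EV in 5 of 5 on day 2 and 6 of 6 on day 4, by log2 differences of -0.29 to -0.21 that did not pass with all libraries.

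Among the 10 receptors, 9 were called by day 4 in at least 1 transfection, a share that was not computed for all genes. In PY, 4 were called higher and 2 lower, in P 5 higher and 1 lower, and in EV 7 higher and 1 lower. The shares higher were 40% in PY (background 19.7%), 50% in P (background 18.7%) and 70% in EV (background 15.1%). The shares lower were 20% in PY (background 17.8%), 10% in P (background 18.5%) and 10% in EV (background 14.9%). Lrp5, a co-receptor that carries the Wnt signal to the Axin complex, was called in all 6 comparisons of days. On day 4 it lay at 83.5 to 196 CPM (median 146) in PY, 120.0 to 223 CPM (median 165) in P and 122 to 267 CPM (median 184) in EV. On day 0 it lay at 41.96 to 85.5 CPM (median 64.7) in PY, 50.2, 82.2, 49.4, 45.3 and 82.9 CPM in P and 64.4, 91.2, 77.03, 43.5 and 42.5 CPM in EV.

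The days did not overlap in P or EV, and in PY only PY day 4 replicate 4 fell inside the day 0 range. By day 4 Lrp5 was 2.28-fold higher (log2 fold change 1.19, SE 0.23, adjusted p = 6.66e-05) in PY, 2.68-fold higher (log2 fold change 1.42, SE 0.25, adjusted p = 1.71e-05) in P and 2.87-fold higher (log2 fold change 1.52, SE 0.25, adjusted p = 1.55e-05) in EV. Most of the difference was present on day 2, at 2.16-fold (adjusted p = 0.000643) in PY, 2.32-fold (adjusted p = 0.000547) in P and 2.29-fold (adjusted p = 0.00181) in EV. Every one of these 6 calls held without each library and without each experiment in turn. Without PY day 4 replicate 4 the PY log2 fold change was 1.30.

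Lrp6, the related co-receptor, lay at 149 to 427 CPM (median 362) in PY day 4 libraries and at 119.5 to 239 CPM (median 146) in PY day 0 libraries. P libraries had 179 to 402 CPM (median 350.4) on day 4 and 184, 228, 142, 116 and 192 CPM on day 0. EV libraries had 165 to 457 CPM (median 332) on day 4 and 187, 190.4, 207, 129 and 115 CPM on day 0. In all 3 the lowest day 4 library came from experiment 4 and overlapped day 0. Lrp6 was 2.08-fold higher (log2 fold change 1.05, SE 0.22, adjusted p = 0.000175) in PY, 1.89-fold higher (adjusted p = 0.00161) in P and 1.96-fold higher (adjusted p = 0.00144) in EV. Leaving out PY day 4 replicate 4 gave a PY log2 fold change of 1.20 (adjusted p = 1.17e-05). On day 2 it was already 1.84-fold higher (log2 fold change 0.88, SE 0.23, adjusted p = 0.00418) in PY, with 5 PY day 2 libraries at 304, 331, 239.8, 318 and 284 CPM that all lay above day 0, a call lost without experiment 5 (adjusted p = 0.0521). On day 2 in P it passed only with the block (adjusted p = 0.0208 with it and 0.128 without), and in EV it did not pass. Experiment 4, the lowest for Lrp6 in 5 of 8 groups, has no PY day 2 library but has one in P and EV.

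Fzd4, a Frizzled receptor that also serves norrin, had the largest fold of the receptors. It lay at 33.4 to 174 CPM (median 128) in PY day 4 libraries and at 21.3 to 65.96 CPM (median 33.5) in PY day 0 libraries. P libraries had 71.05 to 176 CPM (median 126) on day 4 and 46.2, 74.2, 11.3, 21.8 and 26.4 CPM on day 0. EV libraries had 51.4 to 183 CPM (median 98.5) on day 4 and 44.7, 34.8, 63.9, 16.3 and 21.8 CPM on day 0. Ranges overlapped in each, again through the experiment 4 library of day 4. Fzd4 was 3.08-fold higher (log2 fold change 1.62, SE 0.38, adjusted p = 0.000739) in PY, 3.61-fold higher (log2 fold change 1.85, SE 0.41, adjusted p = 0.000391) in P and 3.04-fold higher (log2 fold change 1.61, SE 0.41, adjusted p = 0.00247) in EV. Without PY day 4 replicate 4 the PY log2 fold change was 1.81.

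On day 2, Fzd4 was 2.27-fold higher (adjusted p = 0.0237) in PY, whose 5 libraries at 115, 102, 71.5, 83.9 and 77.5 CPM all lay above the day 0 values. This call was lost without any 1 of PY day 2 replicate 1, or of PY day 0 replicates 4, 5 and 6 (adjusted p 0.053 to 0.0658). In P and EV the day 2 difference passed only with the block (log2 fold change 1.16, adjusted p = 3.76e-05 with the experiment as a block, against 1.11 and 0.0537 without in P, and log2 fold change 0.72, adjusted p = 0.00885 with the experiment as a block, against 0.69 and 0.309 without in EV). All 5 experiments with both days were higher on day 2 in each transfection. They are not the same 5, since PY day 2 has no library of experiment 4 while P and EV day 2 have one. Experiment 4 held the lowest Fzd4 level in 8 of 8 groups, so the PY call and the P and EV results rest on unlike sets of experiments.

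Fzd8, another Frizzled receptor, was higher by day 4 in each transfection with smaller folds. It lay at 36.5 to 116 CPM (median 89.5) in PY day 4 libraries and 22.7 to 79.9 CPM (median 45.6) in PY day 0 libraries. P libraries had 58.7 to 143 CPM (median 101) on day 4 and 47.9, 71.1, 20.3, 38.8 and 58.9 CPM on day 0. EV libraries had 61.7 to 184 CPM (median 104) on day 4 and 63.8, 72.6, 56.1, 20.9 and 40.6 CPM on day 0, with overlap in all 3. The differences were 1.78-fold (adjusted p = 0.0376) in PY, 2.003-fold (adjusted p = 0.0178) in P and 2.11-fold (adjusted p = 0.0143) in EV. The PY call was lost without any 1 of PY day 4 replicates 2, 3, 5 and 6, or of PY day 0 replicates 1, 4, 5 and 6 (adjusted p 0.0502 to 0.112), while without PY day 4 replicate 4 its log2 fold change was 0.98 (adjusted p = 0.012). The P call was lost without either P day 4 replicate 6 or P day 0 replicate 3 (adjusted p 0.0537 to 0.0774), and the EV call without either EV day 4 replicate 6 or EV day 0 replicate 4 (adjusted p 0.0587 to 0.067).

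Fzd2 lay at 94.5 to 157 CPM (median 118) in EV day 4 libraries and at 74.2, 59.9, 71.6, 30.2 and 43.6 CPM in EV day 0 libraries, with no overlap, and was 2.19-fold higher (log2 fold change 1.13, SE 0.26, adjusted p = 0.00112). In P it lay at 69.5 to 121 CPM (median 84.9) on day 4 and 69.4, 77.2, 30.1, 40.6 and 54.7 CPM on day 0 and was 1.68-fold higher (adjusted p = 0.0194), a call lost without any 1 of P day 4 replicate 6, or of P day 0 replicates 3 and 4 (adjusted p 0.0504 to 0.0885). In PY it passed only with the block (log2 fold change 0.52, adjusted p = 0.0139 with the experiment as a block, against 0.50 and 0.105 without).

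Fzd1, the most abundant Frizzled gene, lay at 183 to 386 CPM (median 296) in EV day 4 libraries and at 192, 121, 216, 29.4 and 66.2 CPM in EV day 0 libraries. It was 2.37-fold higher (log2 fold change 1.24, SE 0.42, adjusted p = 0.0206), higher in 5 of 5 experiments, and the call was lost without any 1 of EV day 0 replicates 4 and 5 (adjusted p 0.0735 to 0.0825). In PY and P it passed by day 4 only with the block (log2 fold change 0.77, adjusted p = 0.00104 with the experiment as a block, against 0.72 and 0.146 without in PY, and log2 fold change 0.96, adjusted p = 0.000177 with the experiment as a block, against 0.77 and 0.138 without in P). On day 2 in EV it also passed with the block (adjusted p = 0.0167 with it and 0.476 without).

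Fzd7, a further Frizzled receptor, showed the smallest called difference. It lay at 93.97 to 116 CPM (median 106) in EV day 4 libraries and at 91.8, 102, 85.3, 63.6 and 77.1 CPM in EV day 0 libraries, which overlap, and was 1.26-fold higher (log2 fold change 0.33, SE 0.11, adjusted p = 0.0204). The call was lost without any 1 of EV day 4 replicate 2, or of EV day 0 replicates 4 and 5 (adjusted p 0.0631 to 0.117).

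Fzd5 and Ror2 were lower, and Fzd6 was lower only in the blocked model. Fzd5, a Frizzled receptor, lay at 14.9 to 28.4 CPM (median 23.9) in PY day 4 libraries and at 28.9 to 43.1 CPM (median 37.03) in PY day 0 libraries, with no overlap. The P values were 20.99 to 29.99 CPM (median 25.3) on day 4 and 28.3, 31.4, 31.9, 36.02 and 45.8 CPM on day 0. The EV values were 17.1 to 31.4 CPM (median 27.8) on day 4 and 38.03, 44.4, 36.8, 31.1 and 39.4 CPM on day 0. The days overlapped narrowly in P and in EV. Fzd5 was 1.56-fold lower (log2 fold change -0.64, SE 0.14, adjusted p = 0.000459) in PY, 1.38-fold lower (adjusted p = 0.0126) in P and 1.44-fold lower (adjusted p = 0.00622) in EV. The P call was lost without P day 0 replicate 5 (adjusted p = 0.0773), and the EV call without experiment 2 (adjusted p = 0.071). The Fzd5 log2 fold change in PY was -0.71 (adjusted p = 0.000209) without PY day 4 replicate 4. On day 2 in PY it passed only with the block (adjusted p = 0.0155 with it and 0.0554 without).

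Ror2, a receptor known for Wnt5a, lay at 0.986 to 4.399 CPM (median 3.36) in PY day 4 libraries and at 4.22 to 8.89 CPM (median 5.87) in PY day 0 libraries and was 2.02-fold lower (log2 fold change -1.01, SE 0.34, adjusted p = 0.0171), lower in 6 of 6 experiments with a narrow overlap. Its log2 fold change was -1.04 (adjusted p = 0.0178) without PY day 4 replicate 4. In P and EV it passed only with the block (adjusted p = 0.00165 with it and 0.0568 without in P, and 0.00265 with it and 0.254 without in EV), as on day 2 in PY (0.00827 with it and 0.163 without). Experiments 2 and 3 held the 2 lowest day 4 values in each transfection.

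Fzd6, a Frizzled receptor of low abundance, passed only with the block, in all 3 transfections. It lay at 0.515 to 5.89 CPM (median 3.34) in EV day 4 libraries and at 6.04, 7.56, 4.26, 4.86 and 10.8 CPM in EV day 0 libraries (log2 fold change -1.32, adjusted p = 0.00125 with the experiment as a block, against -1.03 and 0.1 without). The adjusted p with the block was 0.00814 in PY and 0.0347 in P, against 0.126 and 0.186 without it.

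**Figure D4:**
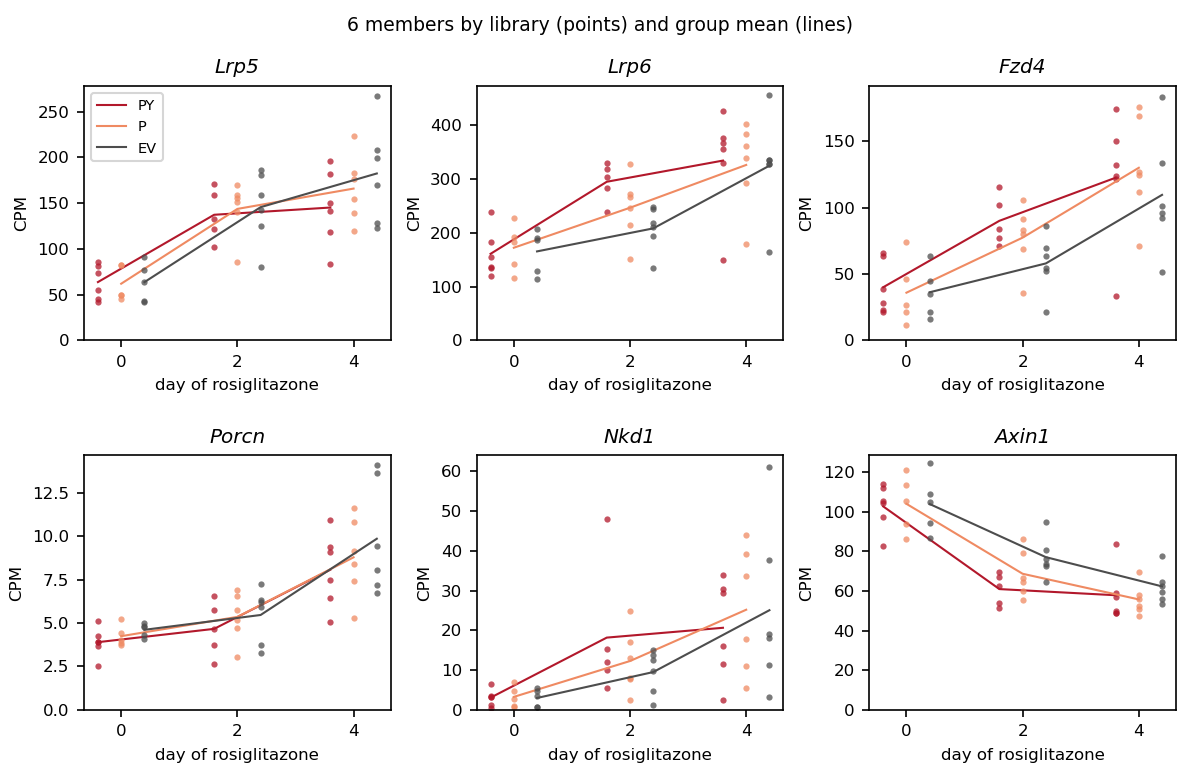
Level in CPM of 6 members in every library (points) with group means (lines) on days 0, 2 and 4, for PY, P and EV, drawn side by side within a day. By day 4, Lrp5, Lrp6, Fzd4, Porcn and Nkd1 are higher than on day 0 and Axin1 is lower, in each transfection, and the low Lrp6 and Fzd4 points of PY day 4, at 149 and 33.4 CPM, belong to PY day 4 replicate 4.

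Of the R-spondin genes and their ligases, the ligase was called and the R-spondins were not. Znrf3, which removes Frizzled receptors from the surface, lay at 10.5 to 19.6 CPM (median 13.1) in PY day 4 libraries and at 14.1 to 22.8 CPM (median 17.8) in PY day 0 libraries. P libraries had 11.2 to 17.9 CPM (median 12.5) on day 4 and 15.8, 18.2, 20.8, 21.02 and 18.1 CPM on day 0. EV libraries had 11.02 to 15.9 CPM (median 13.1) on day 4 and 16.8, 18.4, 19.2, 15.3 and 21.1 CPM on day 0. It was 1.304-fold lower (adjusted p = 0.0339) in PY, 1.37-fold lower (adjusted p = 0.0163) in P and 1.35-fold lower (adjusted p = 0.0251) in EV, with overlap in each. The PY call was lost without any 1 of PY day 4 replicates 1, 4, 5 and 6, or of PY day 0 replicates 3, 5 and 6 (adjusted p 0.0639 to 0.167) and under RLE scaling (adjusted p = 0.0572). Without PY day 4 replicate 4 its log2 fold change was -0.36 (adjusted p = 0.067). The P call was lost without P day 4 replicate 6 (adjusted p = 0.0553), and the EV call without either EV day 4 replicate 6 or EV day 0 replicate 5 (adjusted p 0.0659 to 0.0872). On day 2, Znrf3 was 1.41-fold lower (adjusted p = 0.0169) in PY, at 11.99, 14.3, 17.5, 10.6 and 12.04 CPM, a call lost without any 1 of PY day 2 replicates 1 and 4, or of PY day 0 replicates 3 and 5 (adjusted p 0.0515 to 0.0667), and in P it passed only with the block (adjusted p = 0.00204 with it and 0.0523 without).

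Rspo2 lay at 699 to 1439 CPM (median 1282) in EV day 4 libraries and at 933, 646, 1180, 164 and 505 CPM in EV day 0 libraries. It passed only with the block, in EV (log2 fold change 1.06, adjusted p = 0.000357 with the experiment as a block, against 0.81 and 0.168 without), in P (adjusted p = 0.00194 with it and 0.302 without) and in PY (0.0452 with it and 0.468 without). Rspo3, which acts like Rspo2, lay at 51.4 to 277 CPM (median 150.3) in EV day 4 libraries and at 109.5, 57.7, 236, 12.4 and 33.3 CPM in EV day 0 libraries and passed only with the block in EV (log2 fold change 1.30, adjusted p = 0.00336 with the experiment as a block, against 0.82 and 0.399 without) and in P (0.00493 with it and 0.544 without). For both genes the experiment 4 library was the lowest in 8 of the 8 groups that have one.

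Among the 5 secreted antagonists tested, 1 was called higher by day 4 without the block, in EV (20%, background 15.1%). In PY and P, 0 were called higher (background 19.7% and 18.7%). With the block, 4 passed in at least 2 transfections, a share that was not computed for all genes. In the single comparisons, the block called 52.1% of all genes in PY, 51.3% in P and 44.6% in EV. Sfrp1, a Frizzled-related Wnt-binding protein, lay at 58.8 to 269 CPM (median 102) in EV day 4 libraries and at 43.7, 23.1, 94.6, 22.8 and 9.31 CPM in EV day 0 libraries. It was 3.15-fold higher (log2 fold change 1.66, SE 0.65, adjusted p = 0.0481), higher in 5 of 5 experiments with overlap. The call was lost without any 1 of EV day 4 replicates 1, 2, 3 and 6, or of EV day 0 replicates 1, 2, 4 and 5 (adjusted p 0.0522 to 0.169), while without EV day 0 replicate 3 the log2 fold change was 2.27 (adjusted p = 0.0116). In PY and P it passed only with the block (log2 fold change 1.25, adjusted p = 0.000383 with the experiment as a block, against 1.03 and 0.18 without in PY, and log2 fold change 1.46, adjusted p = 0.000143 with the experiment as a block, against 1.41 and 0.0779 without in P).

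Sfrp2 ran from 3.224 to 459.6 CPM over all libraries and lay at 22.9 to 307 CPM (median 179) in EV day 4 libraries and at 122, 13.5, 133, 6.35 and 5.27 CPM in EV day 0 libraries. It was higher on day 4 in every experiment with both days in PY, P and EV, and passed only with the block (log2 fold change 1.77, adjusted p = 0.000925 with the experiment as a block, against 1.32 and 0.299 without in PY, log2 fold change 2.06, adjusted p = 0.00043 with the experiment as a block, against 1.03 and 0.452 without in P, and log2 fold change 2.33, adjusted p = 0.000156 with the experiment as a block, against 1.63 and 0.248 without in EV). Experiment 1 held its highest value in 8 of 9 groups.

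Dkk2, a DKK protein that binds LRP5 and LRP6, showed the same arrangement. It lay at 5.11 to 50.7 CPM (median 9.93) in EV day 4 libraries and at 24.1, 0.262, 2.13, 1.19 and 0.563 CPM in EV day 0 libraries, and experiment 1 was highest in 9 of 9 groups. Dkk2 passed only with the block (log2 fold change 2.57, adjusted p = 4.5e-05 with the experiment as a block, against 1.33 and 0.351 without in PY, log2 fold change 1.99, adjusted p = 0.00116 with the experiment as a block, against 0.62 and 0.701 without in P, and log2 fold change 2.77, adjusted p = 6.41e-05 with the experiment as a block, against 1.46 and 0.36 without in EV). Dkk3, a divergent DKK family member, lay at 0.665 to 2.97 CPM (median 1.49) in PY day 4 libraries and at 0.134 to 1.39 CPM (median 0.883) in PY day 0 libraries and passed only with the block in PY (log2 fold change 1.39, adjusted p = 0.00182 with the experiment as a block, against 1.25 and 0.0928 without) and EV (adjusted p = 0.00808 with it and 0.236 without). Sfrp4, a Frizzled-related protein, was never called, lay between 0 and 1.12 CPM, and had its largest log2 difference, -1.31, between P and EV on day 4 (SE 0.73, adjusted p = 0.485).

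The intracellular inhibitors moved in opposite directions. Axin1 was lower in all 6 comparisons of days. On day 4 it lay at 48.6 to 83.7 CPM (median 53.3) in PY, 47.1 to 69.6 CPM (median 54.3) in P and 53.6 to 77.5 CPM (median 60.99) in EV. On day 0 it lay at 82.7 to 114 CPM (median 105) in PY, 93.9, 86.02, 121, 114 and 105 CPM in P and 93.99, 105, 86.5, 125 and 109 CPM in EV. The days did not overlap in P or EV, and in PY only PY day 4 replicate 4, at 83.7 CPM, reached the day 0 range.

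Axin1 was 1.78-fold lower (log2 fold change -0.83, SE 0.13, adjusted p = 1.64e-06) on day 4 than on day 0 in PY, 1.86-fold lower (log2 fold change -0.90, SE 0.13, adjusted p = 1.28e-06) in P and 1.67-fold lower (log2 fold change -0.74, SE 0.13, adjusted p = 4.89e-05) in EV. Without PY day 4 replicate 4 the PY log2 fold change was -0.98. On day 2 Axin1 was 1.69-fold lower (adjusted p = 5.46e-05) in PY, 1.51-fold lower (adjusted p = 0.00137) in P and 1.35-fold lower (adjusted p = 0.0344) in EV, in every experiment with both days. Of these, 5 of the 6 calls held without each library in turn, and the EV day 2 call was lost without any 1 of EV day 2 replicates 1, 2, 5 and 6, or of EV day 0 replicates 2, 4 and 5 (adjusted p 0.0505 to 0.136).

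Nkd1, known in mouse and other animals as an antagonist induced by Wnt signalling itself, had the largest called fold by day 4 in each transfection. It lay at 2.55 to 34.0 CPM (median 22.7) in PY day 4 libraries and at 0.534 to 6.58 CPM (median 3.29) in PY day 0 libraries. The P values were 5.38 to 43.97 CPM (median 25.8) on day 4 and 7.11, 4.68, 0.772, 1.011 and 2.67 CPM on day 0. The EV values were 3.18 to 61.04 CPM (median 18.5) on day 4 and 5.46, 3.45, 4.64, 0.594 and 0.717 CPM on day 0. Ranges overlapped because experiment 4 was low on both days, yet day 4 was higher in every experiment with both days.

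Nkd1 was 6.61-fold higher (log2 fold change 2.72, SE 0.72, adjusted p = 0.00253) in PY, 7.604-fold higher (log2 fold change 2.93, SE 0.76, adjusted p = 0.00235) in P and 8.61-fold higher (log2 fold change 3.11, SE 0.79, adjusted p = 0.00259) in EV, and these calls held without each library in turn. Leaving out PY day 4 replicate 4 gave a log2 fold change of 2.94 (adjusted p = 0.000979) in PY. On day 2 it was 5.898-fold higher (adjusted p = 0.0094) in PY, at 48.01, 12, 15.3, 5.54 and 9.89 CPM. PY day 2 has no library of experiment 4, which held the lowest Nkd1 level in 8 of 8 groups, while P and EV day 2 have one. Without PY day 2 replicate 1, which held the 48.0 CPM, the log2 fold change was 1.73 and the call was lost (adjusted p = 0.102). In P and EV the day 2 difference passed only with the block (log2 fold change 1.88, adjusted p = 3.61e-06 with the experiment as a block, against 1.89 and 0.0773 without in P, and log2 fold change 1.82, adjusted p = 2.77e-05 with the experiment as a block, against 1.71 and 0.163 without in EV).

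Against its own day 0, whose values are given above, Axin2 in PY was 8.56-fold higher (log2 fold change 3.10, SE 0.60, adjusted p = 0.000204) on day 2 and 4.69-fold higher (log2 fold change 2.23, SE 0.58, adjusted p = 0.00208) on day 4. Leaving out PY day 4 replicate 4 gave a day 4 log2 fold change of 2.44 (adjusted p = 0.000564). In P it was 4.83-fold higher (log2 fold change 2.27, SE 0.57, adjusted p = 0.00515) on day 2, a call that held without each library in turn and was lost without any 1 of experiments 5 and 6 (adjusted p 0.0578 to 0.103). By day 4 in P it was 5.87-fold higher (log2 fold change 2.55, SE 0.58, adjusted p = 0.00054), and the days did not overlap. In EV the day 4 difference from day 0 did not pass (log2 fold change 1.13, SE 0.63, adjusted p = 0.175), nor did that of day 2 (0.38, SE 0.64, adjusted p = 0.797). Whether P and EV changed differently is the interaction given above, which did not pass. Nkd2, a relative of Nkd1, lay at 0.707 to 3.03 CPM (median 1.096) in PY day 4 libraries and at 1.39 to 5.03 CPM (median 2.12) in PY day 0 libraries and passed only there and only with the block (log2 fold change -0.87, adjusted p = 0.0322 with the experiment as a block, against -0.87 and 0.193 without).

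Among the transcriptional effectors, beta-catenin and Tcf7l2 transcripts were higher and Lef1 lower in EV. Ctnnb1 lay at 406 to 643 CPM (median 554) in EV day 4 libraries and at 442, 426, 330.4, 366 and 469 CPM in EV day 0 libraries and was 1.33-fold higher (log2 fold change 0.41, SE 0.15, adjusted p = 0.0282). The call was lost without any 1 of EV day 4 replicates 1, 5 and 6, or of EV day 0 replicates 3 and 4 (adjusted p 0.051 to 0.0852). It passed only with the block by day 4 in PY (adjusted p = 0.0142 with it and 0.189 without) and P (0.0041 with it and 0.13 without), and on day 2 in EV (0.00799 with it and 0.156 without). Reads of Ctnnb1 can be shared with Ulk4 on the opposite strand, whose total was 6736 counts against 622878 for Ctnnb1, since the strand setting of the counting is not given in the sources used here.

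Tcf7l2, a TCF factor that partners beta-catenin, lay at 19.1 to 151 CPM (median 74.9) in EV day 4 libraries and at 26.7, 21.6, 70.3, 11.2 and 8.55 CPM in EV day 0 libraries and was 3.24-fold higher (log2 fold change 1.70, SE 0.62, adjusted p = 0.0342). The call was lost without any 1 of EV day 4 replicates 2 and 3, or of EV day 0 replicates 1, 2, 4 and 5 (adjusted p 0.0569 to 0.105), and without EV day 0 replicate 3 the log2 fold change was 2.36 (adjusted p = 0.00607). It passed only with the block by day 4 in PY (log2 fold change 1.33, adjusted p = 3.99e-05 with the experiment as a block, against 1.23 and 0.0917 without) and P (log2 fold change 1.08, adjusted p = 0.000885 with the experiment as a block, against 1.33 and 0.0791 without), and on day 2 in PY (adjusted p = 0.00625 with it and 0.252 without) and EV (0.0344 with it and 0.645 without). Tcf7l1, a TCF factor known mainly as a repressor, lay at 6.67 to 47.3 CPM (median 30.3) in EV day 4 libraries and at 10.6, 11.3, 26.3, 8.09 and 5.01 CPM in EV day 0 libraries and passed only with the block in EV (log2 fold change 1.23, adjusted p = 0.000561 with the experiment as a block, against 1.23 and 0.064 without) and PY (0.0457 with it and 0.369 without).

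Lef1, the factor that gives the TCF/LEF family part of its name, lay at 1.15 to 2.14 CPM (median 1.83) in EV day 4 libraries and at 3.05, 4.15, 2.32, 5.08 and 3.53 CPM in EV day 0 libraries, with no overlap. It was 2.06-fold lower (log2 fold change -1.04, SE 0.28, adjusted p = 0.00472), lower in 5 of 5 experiments, and the call held without each library in turn. In P it lay at 1.45 to 4.11 CPM (median 1.696) on day 4 and 3.51, 1.77, 5.68, 3.496 and 4.07 CPM on day 0 and was 1.72-fold lower (adjusted p = 0.0243), a call lost without any 1 of P day 4 replicates 2, 3 and 5, or of P day 0 replicate 3 (adjusted p 0.0534 to 0.133). In PY it was not called. Tcf7, another TCF factor, and the ligand Wnt2b were never called. Tcf7 lay between 0.302 and 4.32 CPM with a largest log2 difference of -0.40 (P day 2 against day 0, SE 0.46, adjusted p = 0.632), and Wnt2b lay between 0 and 0.664 CPM with a largest log2 difference of -0.75 (PY day 2 against day 0, SE 0.61, adjusted p = 0.4).

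Experiments differed from each other in many of these genes. Entered after the 9 group means, the experiment held a median of 42% of the total variance of log2 CPM over the 35 tested members. The groups held a median of 33.3%, and the experiment share exceeded the group share in 17 of 35. These shares were not computed for all genes, so they cannot be called particular to the members. The experiment share was 69.7% for Rspo3, 65.8% for Sfrp2 and 63.4% for Rspo2. It was 2.81% for Wnt10b, 7.57% for Axin2 and 13.3% for Axin1, whose group share was the highest at 77.2%. The library of experiment 4 was the lowest in 8 of 8 groups for Fzd1, Fzd4, Dkk3, Nkd1, Rspo2 and Rspo3. How many of all genes share this was not computed. The first principal component of all genes tested also had its lowest score in experiment 4 in 6 of these 8 groups.

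**Figure D5:**
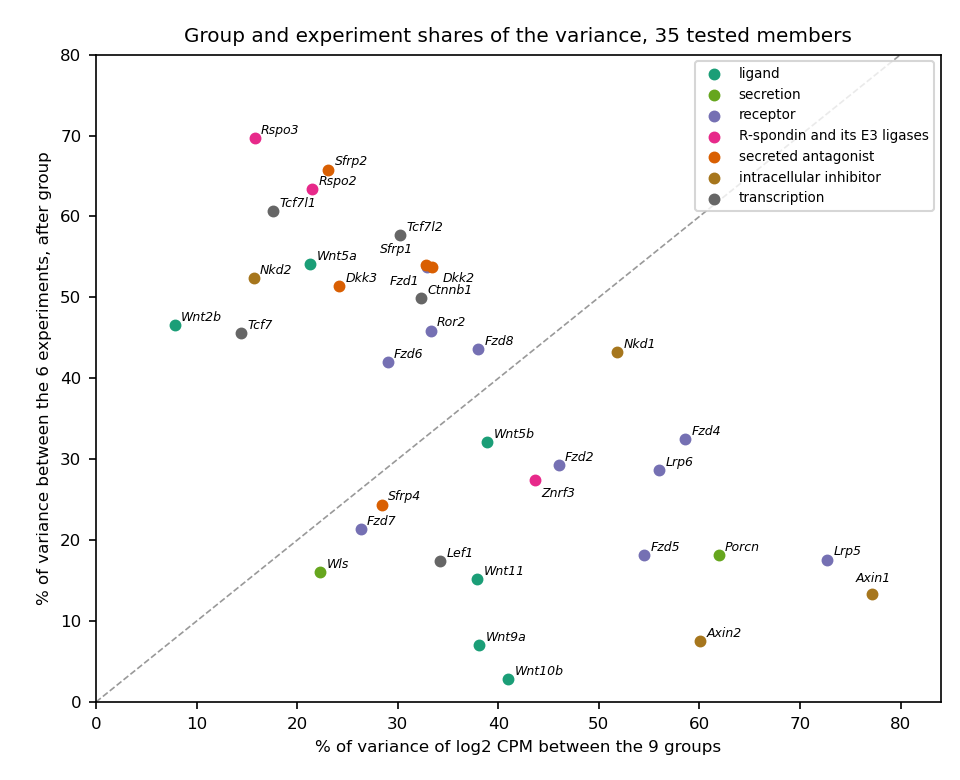
Percent of the variance of log2 CPM that lies between the 9 groups (x axis) and, after group, between the 6 experiments (y axis), for the 35 tested members, coloured by role, with a dashed line where both are equal. Rspo3, Sfrp2 and Rspo2 lie highest on the y axis at 69.7%, 65.8% and 63.4%, and Axin1 lies farthest right at 77.2%.

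Other genes of the pathway, from lists that are not members, were set beside these. Of 14 further known targets of beta-catenin, 11 were tested. By day 4, 1 was called higher and 4 lower in PY, 1 higher and 6 lower in P, and 1 higher and 4 lower in EV, with median log2 differences of -1.34, -1.45 and -1.24. The shares higher were 9.09% in each (background 19.7% in PY, 18.7% in P and 15.1% in EV). The shares lower were 36.4% in PY (background 17.8%), 54.5% in P (background 18.5%) and 36.4% in EV (background 14.9%). The 1 gene called higher in PY and in P was Apcdd1, described below. It was 7.97-fold higher (adjusted p = 5.39e-08) in PY and 7.97-fold higher (adjusted p = 2.74e-07) in P, with smaller p than the lower genes named next. In EV, Apcdd1 was not called (1.45-fold, adjusted p = 0.297), and the gene called higher there was another. Myc, a growth regulator, was 3.52-fold lower (adjusted p = 0.000104) in PY, 4.58-fold (adjusted p = 1.59e-05) in P and 4.08-fold (adjusted p = 8.77e-05) in EV. Jun, an AP-1 factor, was 2.77-fold lower (adjusted p = 7.2e-06) in PY, 2.74-fold (adjusted p = 1.9e-05) in P and 2.36-fold (adjusted p = 0.000266) in EV. Fosl1, a second AP-1 gene, was 8.23-fold lower (adjusted p = 0.00251) in PY, 14.9-fold (adjusted p = 0.000366) in P and 8.701-fold (adjusted p = 0.00377) in EV.

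Of that list, 1 gene was called between transfections, on day 4 (9.09% in PY, background 7.83%, and 9.09% in P, background 5.37%). This was Apcdd1, a membrane antagonist of Wnt signalling that is also a target gene. Its day 4 level was 17.2 ± 11.4 CPM in PY, 18.7 ± 12.5 CPM in P and 3.401 ± 1.17 CPM in EV (SD, n = 6 each), with ranges of 6.28 to 37.4, 9.44 to 42.95 and 2.02 to 5.01 CPM that kept both guide groups above EV. It was 5.03-fold higher (adjusted p = 6.71e-06) in PY and 5.48-fold higher (adjusted p = 4.9e-06) in P. Its P difference from EV was larger on day 4 than on day 0, by a log2 change of 2.46 (SE 0.53, adjusted p = 0.0231). On day 2 it was not called between transfections.

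Among 9 further secreted antagonists, 3 were tested, and by day 4, 1 was called higher in PY (background 19.7%), 2 in P (background 18.7%) and 3 in EV (background 15.1%). Igfbp4, an IGF-binding protein that can also block Wnt receptors, was 4.27-fold higher (adjusted p = 0.000233) in PY, 4.09-fold (adjusted p = 0.000716) in P and 4.56-fold (adjusted p = 0.000597) in EV. Notum, which removes the Wnt lipid, was 2.58-fold higher (adjusted p = 0.0366) in P and 2.81-fold (adjusted p = 0.0317) in EV. Frzb, a Wnt-binding protein, was 3.36-fold higher (adjusted p = 0.0397) in EV.

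Of 15 further surface components, 9 were tested, with 2 called higher in PY (22.2%, background 19.7%), 3 in P (33.3%, background 18.7%) and 5 in EV (55.6%, background 15.1%) by day 4. Gpc4, a glypican, was 1.77-fold higher (adjusted p = 0.0466) in PY and 1.97-fold (adjusted p = 0.0301) in EV, and Fzd9, a Frizzled receptor, was 2.52-fold higher (adjusted p = 0.0205) in P and 2.64-fold (adjusted p = 0.0201) in EV. Ror1, a relative of Ror2, was 1.82-fold higher (adjusted p = 0.0113) in EV. Of 10 further ligands, 2 were tested, and 1 of them, Wnt7b, was called higher in EV (adjusted p = 0.00693) at 0.197 ± 0.185 CPM on day 4 and 0.00742 ± 0.0166 CPM on day 0 (SD, n = 6 and 5).

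All 23 genes of the cytoplasmic list were tested, and by day 4, 4 were called higher and 3 lower in PY, 5 and 1 in P, and 6 and 1 in EV. The shares called, 30.4% in PY (background 37.5%), 26.1% in P (background 37.2%) and 30.4% in EV (background 30.0%), were near or below those of all genes. Tle2, a Groucho-type co-repressor, was 3.01-fold higher (adjusted p = 0.0124) in PY, 3.08-fold (adjusted p = 0.016) in P and 4.17-fold (adjusted p = 0.00422) in EV. Csnk1e, a casein kinase gene, was 1.41-fold lower (adjusted p = 0.043) in PY, 1.59-fold (adjusted p = 0.00837) in P and 1.57-fold (adjusted p = 0.0142) in EV. All 17 genes of the planar polarity and calcium branch were tested, with 5 called higher and 2 lower in PY, 4 and 2 in P, and 4 and 4 in EV. The shares called were 41.2% in PY (background 37.5%), 35.3% in P (background 37.2%) and 47.1% in EV (background 30.0%). Daam2, a formin of that branch, was 1.64-fold higher (adjusted p = 0.00174) in PY, 2.13-fold (adjusted p = 2.13e-05) in P and 2.06-fold (adjusted p = 8.71e-05) in EV, and Prickle1, a core polarity gene, was 3.07-fold higher (adjusted p = 0.000613) in PY, 2.58-fold (adjusted p = 0.00434) in P and 3.12-fold (adjusted p = 0.00161) in EV.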

How the data were processed

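The values, as deposited by the authors, are raw counts for each Ensembl gene in 51 libraries. The submitters' processing notes list STAR 2.5.3a together with featureCounts 1.5.2 and edgeR 3.22.0, with the genome build mm10 (GRCm38). Libraries were made with a stranded total RNA kit and Ribo-Zero Gold, per the labels' protocols. The annotation release, strand setting and handling of multi-mapping reads are not given in the sources used here, so members with an overlapping gene on the opposite strand may hold some of its reads.

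Symbols and exonic lengths came from GENCODE M21, which matched 53706 of the 53801 IDs (95 did not match). Promoter windows came from RefSeq (GRCm38.p6). Levels are CPM on TMM-scaled library sizes, and FPKM is CPM per 1000 bases of exonic length. All 51 libraries entered 1 model with 9 group means in edgeR 4.0.16 (quasi-likelihood test, robust, two-sided, filterByExpr, R 4.3.3, limma 3.58.1), and p-values were adjusted by Benjamini-Hochberg over 17015 genes for each of 15 comparisons and 2 interaction contrasts. The same code was checked on counts drawn with known fold changes. Those counts held no differences between experiments, so the check does not cover libraries paired by experiment. The outcome of the check is not given here, and no call above rests on it. Alternatives were the experiment as a replicate block, no low count filter, RLE scaling, DESeq2 1.42.0, the compared groups only, leaving out each library or experiment and, added after seeing the data, the block without PY day 4 replicate 4.

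The experiment label pairs libraries across groups. Deviations from group means of libraries from the same experiment had a median correlation of 0.364 over 192 pairs, against -0.0886 for libraries from other experiments. The biological coefficient of variation was 0.325 without the block and 0.202 with it. Replicate numbers differ from experiment numbers in P day 0, which lacks experiment 2, and in PY day 2, which lacks experiment 4. EV day 0 lacks experiment 6. Experiments were taken from their own label. Whether experiments are separate cultures beyond that label is not stated, so p-values measure the spread between these libraries.

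Members and lists were chosen with earlier results of these data known. Members called with or without the block are described in full, the other tested members by range and largest difference, and up to 4 called genes of smallest p from each other list could be named.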

Additional observations from a re-analysis of the deposited data

Results flagged for a closer look

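In groups of 5 or 6 libraries, 30 of 315 sets of values of the 35 tested members held 1 library far from the others by Dixon's test (the gap to the nearest value over the range of the group). That is 9.52%. Dixon's test flags about 1 in 20 sets of normally distributed values, and CPM values were not shown to be so distributed. Sets that share a library or a gene are also not independent. The share can therefore not be set against chance. All values are CPM.

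Dkk2 held 8 of them, each the high library of experiment 1. It stood at 34.55 in PY day 0 replicate 1 (others 0.312 to 2.505), 39.6 in P day 0 replicate 1 (others 0.352 to 2.34) and 24.1 in EV day 0 replicate 1 (others 0.262 to 2.13). On day 2 it stood at 27.2 in PY replicate 1 (others 1.53 to 2.63) and 11.83 in P replicate 1 (others 1.21 to 2.39). On day 4 it stood at 63.88 in PY replicate 1 (others 5.91 to 11.5), 50.27 in P replicate 1 (others 3.74 to 8.496) and 50.68 in EV replicate 1 (others 5.11 to 14.96). Sfrp2 was also high in that experiment, at 302.7 in PY day 2 replicate 1 (others 8.84 to 72.8) and 459.6 in PY day 4 replicate 1 (others 12.2 to 167). Nkd1 stood at 48.01 in PY day 2 replicate 1 (others 5.54 to 15.3), and Wnt5a at 32.1 in PY day 4 replicate 1 (others 17.0 to 22.01). Lef1 stood at 4.113 in P day 4 replicate 1 (others 1.45 to 2.43) and at 3.112 in PY day 4 replicate 6 (others 1.68 to 2.21).

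PY day 4 replicate 4, the library that stood apart, held 4 sets. Its Axin1 level was 83.71, against 48.6 to 59.1 in the other PY day 4 libraries. Its Fzd4 level was 33.41, against 121.7 to 174 in the others. Its Lrp6 level was 149.3, against 330.2 to 427 in the others. Its Rspo2 level was 312.4, against 866 to 1073 in the others. Rspo2 was also low in EV day 2 replicate 4, at 208 (others 779 to 1036).

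Wnt11 was flagged in 2 groups, at 3.749 in EV day 0 replicate 4 (others 0.194 to 1.075) and at 1.677 in P day 4 replicate 2 (others 0.168 to 0.621). Lrp5 stood at 86.16 in P day 2 replicate 4 (others 140.5 to 169.9). Fzd7 stood at 84.25 in EV day 2 replicate 5 (others 89.9 to 92.9). Sfrp1 stood at 269.4 in EV day 4 replicate 2 (others 58.8 to 126). Ror2 stood at 3.055 in P day 0 replicate 2 (others 5.69 to 6.74). Tcf7l1 stood at 32.56 in PY day 0 replicate 3 (others 5.62 to 12.8). Wnt2b stood at 0.5649 in EV day 2 replicate 2 (others 0.185 to 0.286). Sfrp4 stood at 0.6708 in P day 4 replicate 2 (others 0 to 0.243). Wls stood at 212.9 in EV day 0 replicate 4 (others 335 to 367). Nkd2 stood at 5.576 in EV day 2 replicate 6 (others 1.68 to 2.47).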

How the results depend on the processing

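All 60 calls of members over the 15 comparisons kept their side of the threshold with DESeq2 and with the experiment as a replicate block. RLE scaling lost 1 of them, the compared groups alone 8 and no low count filter 17. Of the 60 calls, 36 held without each library in turn, 29 were lost without at least 1 experiment, and 31 held without each library, each experiment and under every other setting run. The cause of the losses was not tested. Apart from the added calls named with their values in the results, the block changed no other call.

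With the block, PY against EV called 2 members on day 2 (1 without it) and 1 on day 4 (0 without it). Day 2 against day 0 called 8 in P (4 without it) and 8 in EV (3 without it). Day 4 against day 0 called 27 in PY (11 without it) and 25 in P (13 without it). Without the low count filter, P against EV on day 4 called 0 members and EV day 2 against day 0 called 1. With DESeq2, P day 2 against day 0 called 7. The shares of all genes called with the block are given in the results. Those without the low count filter and with DESeq2 are not given here, so these counts cannot be set against all genes. With the block and without PY day 4 replicate 4, which was chosen after seeing the data, PY called 4 against EV on day 4 and 23 against day 0.

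Leaving out 1 library or 1 experiment, P against EV called 0 to 2 members on day 2 and 0 to 1 on day 4, and PY against EV called 0 to 1 on day 2. Day 2 against day 0 called 4 to 9 in PY, 2 to 7 in P and 1 to 3 in EV. Day 4 against day 0 called 9 to 14 in PY, 8 to 17 in P and 10 to 20 in EV. The share of all genes is given for only 1 of these refits, PY day 4 against day 0 without PY day 4 replicate 4. The ranges can therefore not be set against all genes.

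On day 0 the log2 fold change of Axin2, which was not called, changed sign: it ran from -0.535 to 0.163 in PY against EV and from -0.01 to 0.603 in P against EV. Of the tested members, Wnt10b (291 counts over all libraries), Sfrp4 (301) and Wnt2b (351) had the fewest counts, followed by Wnt11 (1141) and Axin2 (1575).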
